A study of Mus musculus with 48 samples.

Results

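The developmental pluripotency associated genes measured here were *Dppa2*, *Dppa4*, *Dppa3*, and *Dppa5a*. They were taken from the deposited table of read counts by their symbols, which gave 4 of 24264 transcripts, and all 4 passed the filter on low counts together with 15630 genes in all. Levels are given as CPM, counts scaled in the usual way to a common library total, where the total holds transcript reads alone. The reads came from the 5′ ends of mRNAs and were counted per gene.

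*Dppa2* and *Dppa4* encode nuclear proteins with a DNA-binding SAP domain that work as a pair at the promoters of developmental genes, and they are known as activators of the *Dux* and *Zscan4* program of the early embryo. *Dppa3*, also called *Stella*, encodes a maternal protein that protects DNA methylation in the zygote and keeps UHRF1, the partner of the maintenance methyltransferase, from chromatin in the oocyte. *Dppa5a* encodes a KH-domain RNA-binding protein that is abundant in embryonic stem cells (ESCs) and germ cells.

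The 48 libraries came from 20 mouse conditions. Mouse embryonic fibroblasts (MEFs) carried a doxycycline-inducible cassette of *c-Myc*, *Klf4*, *Oct4*, and *Sox2* in the order MKOS or the order OKMS, placed with a CAG-driven rtTA in an intron of *Sp3* in ESCs that hold a *Nanog*-GFP reporter (TNG). The OKMS cassette carries a short form of *Klf4*. Transgenic MEFs were obtained from chimeric embryos and mixed with an excess of WT MEFs for reprogramming, so that only some of the fibroblasts in a culture carried the cassette, in medium with serum, LIF, doxycycline, and vitamin C. Cells were sorted on day 10 by the design text, whereas the growth protocol in the labels names 10 or 15 days. The 2NG- gate held cells low in CD44 and in ICAM1 without *Nanog*-GFP, the 3NG- gate cells low in CD44 and high in ICAM1 without *Nanog*-GFP, and the 3NG+ gate the *Nanog*-GFP+ cells of the latter. MKOS cells were sorted as E-CAD+ 2NG-, 3NG-, and 3NG+, and OKMS cells as the same 3 populations plus E-CAD- 2NG- and 3NG-, with 3 libraries for each of these 8 populations. The other 12 conditions had 2 libraries each. They were WT MEFs and MEFs of each cassette before reprogramming, the ESC line E14, the reporter line TNG and its derivatives TNG MKOS and TNG OKMS, and established iPSC clones of each cassette, either without doxycycline (-dox) or in 2i, a medium with inhibitors of MEK and GSK3. The last was labelled D6, taken here as the study's iPSC line D6s4B5, which carries the MKOS cassette in a single piggyBac insertion. Its sample titles give only the name D6. *Nanog* was part of the sort, so a difference between 3NG+ and 3NG- cells is a difference between cells that were separated by a pluripotency reporter.

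Libraries held 1429717 to 14174725 reads on transcripts (median 6243254.5), and 3 reads, the limit used here for a count of 0, were worth 0.212 to 2.10 CPM. The 8 fibroblast markers checked (*Col1a1* and others, all in the table) summed to 2951 to 5401 CPM in MEFs and to 3.05 to 9.29 CPM in ESCs, and the 8 pluripotency markers (*Nanog*, *Zfp42*, and others) to 4.38 to 27.0 CPM in MEFs and 1740 to 2911 CPM in ESCs. Fibroblast markers were still at 427 to 966 CPM in MKOS 2NG- and 3NG- libraries and at 72.3 to 278 CPM in the E-CAD+ OKMS ones. In the third libraries of OKMS E-CAD+ 2NG- and 3NG- cells the pluripotency markers summed to 409 and 736 CPM, against 235 to 238 and 272 to 360 CPM in the other libraries of these populations. The 4 trophoblast markers reached 62.4 and 92.3 CPM there, against 22.6 to 29.7 CPM, and the 4 primitive endoderm markers 26.0 and 43.6 CPM, against 0 to 11.9 CPM. These libraries stand apart, and values that they enter are also given without them where they move a call or the size of a difference. The third MKOS libraries were shifted too, with pluripotency markers at 900 CPM in 2NG- and 1707 CPM in 3NG- cells, against 454 to 465 and 1157 to 1211 CPM. Trophoblast markers were at 36.0 and 26.1 CPM in the third OKMS E-CAD- libraries, against 0.349 to 2.28 CPM. A cassette difference without the third OKMS library alone thus still holds the shifted MKOS library. A lower level in bulk RNA can come from fewer expressing cells or from less RNA per cell, which cannot be told apart here.

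The share of a gene's reads with a single position in the genome was 98.5% for *Dppa3*, 89.0% for *Dppa5a*, 76.8% for *Dppa2*, and 12.9% for *Dppa4*, against 73.9% over all transcripts. These shares were deposited as sums over all libraries, so they say nothing of single conditions. For *Dppa4*, 5733 of 44482 reads had a single position. The remainder had several positions and was placed by rule, and reads of near-identical copies cannot be told from reads of the gene, so every *Dppa4* value below is uncertain in this way. The positions given by the table lie within 101 bases, the largest offset among the 4 genes (that of *Dppa2*, *Dppa3*, and *Dppa4*), of the lower end of the GRCm38 entry for 81.8% of symbols and of the NCBIM37 entry for 2.85%, so coordinates are given on GRCm38, from RefSeq. *Dppa4* (chr16:48283735-48294292) and *Dppa2* (chr16:48310274-48319513) lie side by side on the plus strand, *Dppa3* (chr6:122626424-122630271) is on the plus strand, and *Dppa5a* (chr9:78367052-78368199) is on the minus strand.

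**Figure D1:**
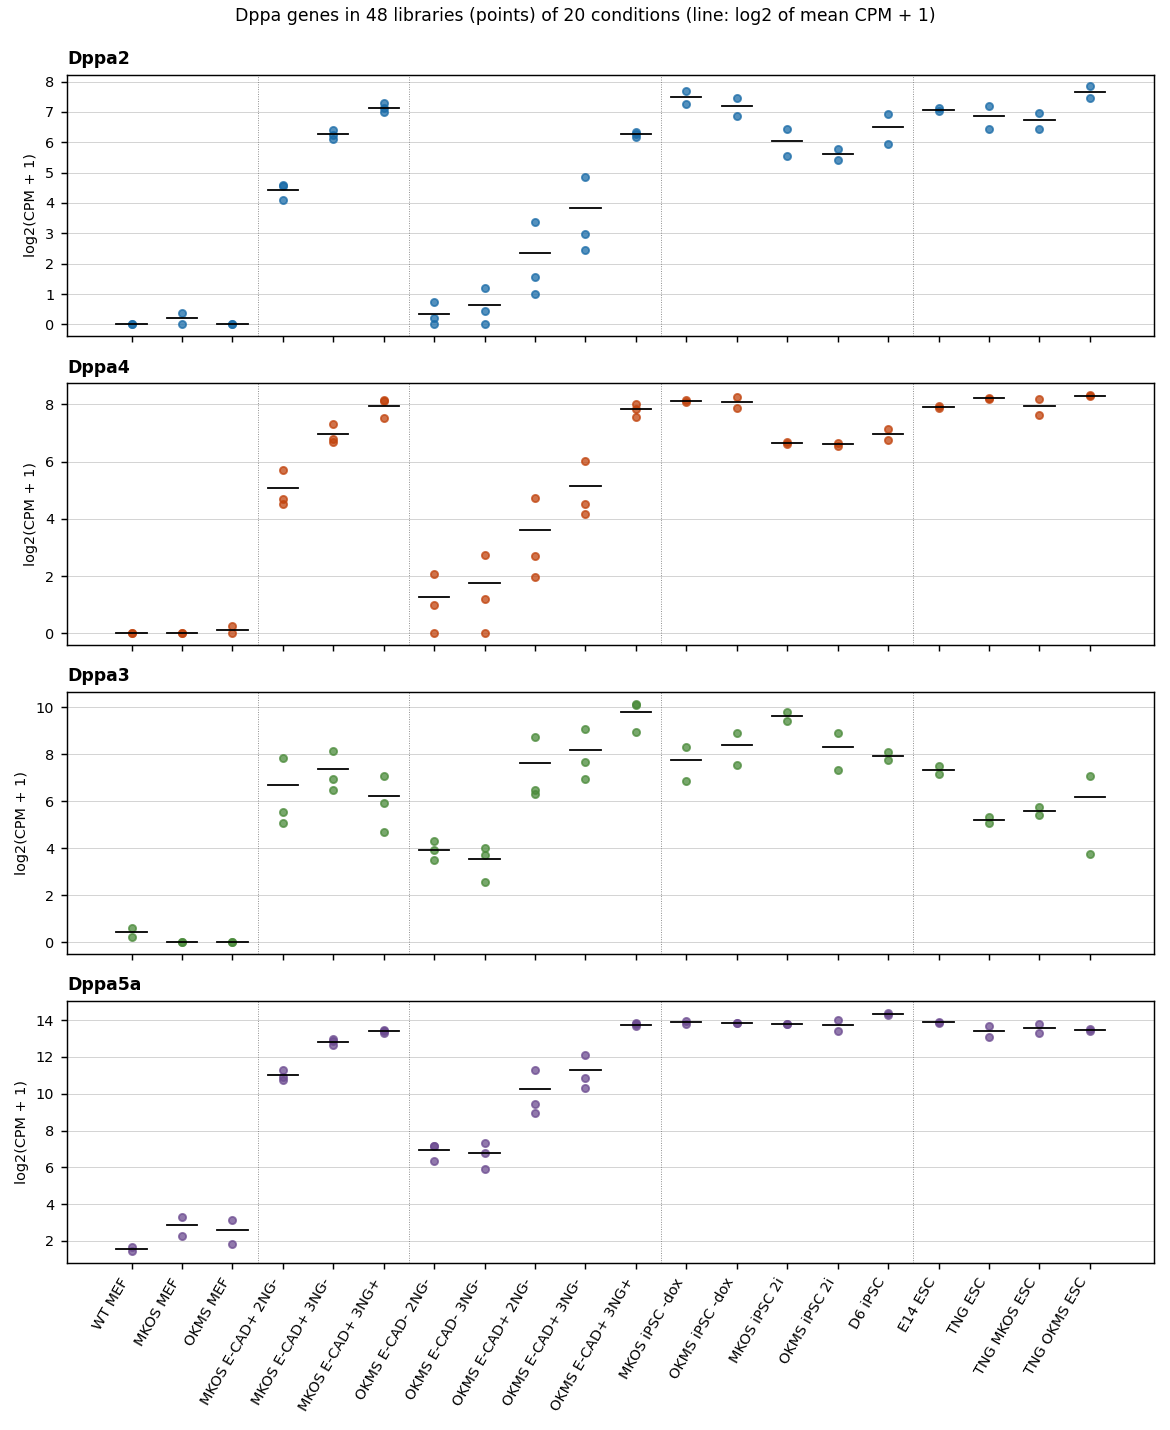
Level of each gene in every library as log2(CPM + 1) on a linear axis, by condition. Points are single libraries and the bar is the log2 of the mean CPM plus 1. All 4 genes were near 0 in MEFs apart from *Dppa5a*, whose MEF libraries were at 1.74 to 8.80 CPM, and *Dppa3* alone was highest in OKMS 3NG+ cells.

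*Dppa2* and *Dppa4*, the SAP-domain pair, had almost no reads in MEFs, and their MKOS levels were ordered 2NG-, 3NG-, 3NG+. *Dppa2* was at 0 reads in 5 of 6 MEF libraries and at 3 reads (0.307 CPM) in the first MKOS MEF library. *Dppa4* was at 0 reads in 5 of 6 MEF libraries and at 1 read in the first OKMS MEF library. In MKOS 2NG- cells *Dppa2* was at 16.3, 22.6, and 23.3 CPM and *Dppa4* at 21.7, 24.8, and 50.9 CPM. In MKOS 3NG- cells *Dppa2* was at 67.9, 74.9, and 84.4 CPM and *Dppa4* at 101, 109, and 158 CPM. In MKOS 3NG+ cells *Dppa2* was at 137, 127, and 154 CPM and *Dppa4* at 182, 275, and 285 CPM. No library of one of these 3 MKOS populations overlapped a library of the next for either gene. Here and below, a lack of overlap only describes the libraries. With so few libraries in a group unchanged genes can lack overlap too, and the share of all genes that did was not counted. As a share of the mean of the 8 ESC libraries, *Dppa2* stood at 15.0%, 54.6%, and 100.7% in the 3 populations and *Dppa4* at 11.9%, 44.9%, and 90.4%.

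With the OKMS cassette the levels of the pair before *Nanog*-GFP were a small share of the ESC mean, at 2.97% and 9.47% for *Dppa2* and 4.15% and 12.5% for *Dppa4*. In OKMS E-CAD+ 2NG- cells *Dppa2* was at 1.02, 1.93, and 9.38 CPM and *Dppa4* at 5.45, 2.90, and 25.7 CPM. In OKMS E-CAD+ 3NG- cells *Dppa2* was at 6.87, 4.52, and 28.0 CPM and *Dppa4* at 21.9, 16.9, and 63.8 CPM. The highest value of each set belongs to the third library named above. In OKMS 3NG+ cells *Dppa2* was at 80.1, 71.3, and 77.0 CPM, which is 54.9% of the ESC mean, and *Dppa4* at 261, 230, and 187 CPM, which is 82.6%. Every OKMS 3NG+ library of either gene was above every OKMS 3NG- library.

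**Figure D2:**
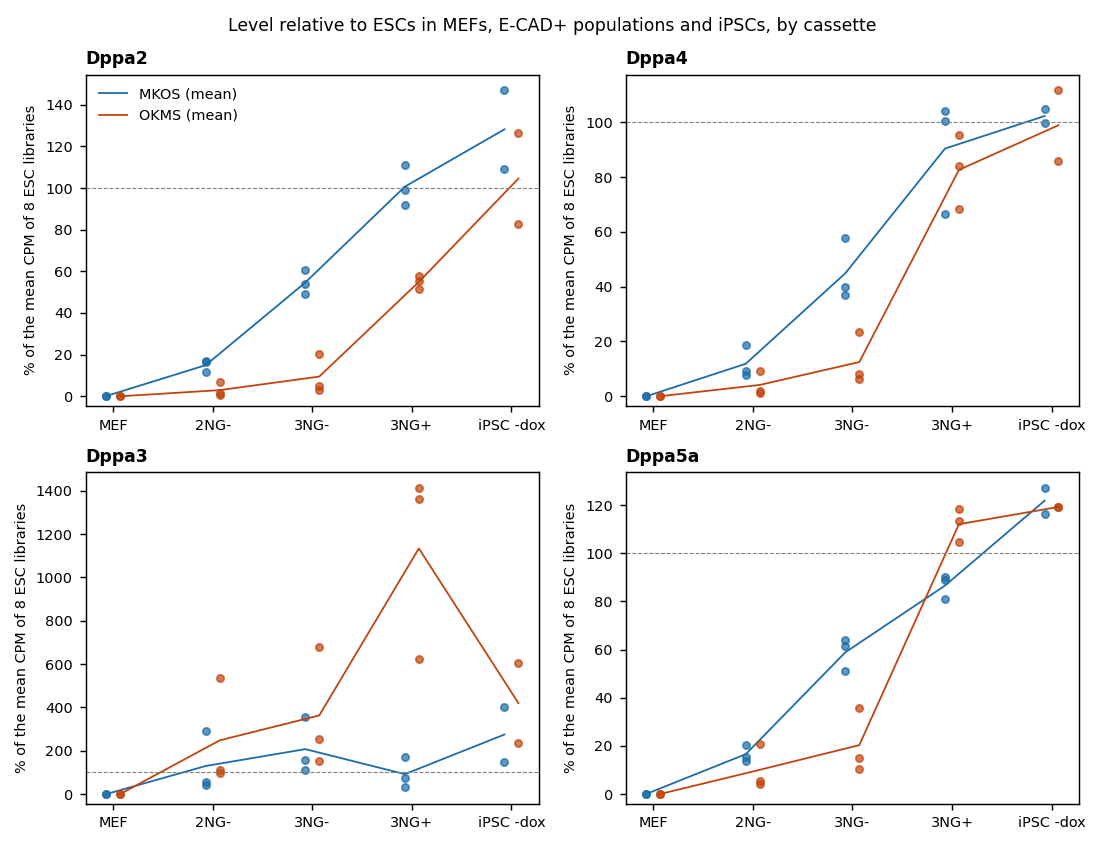
Level of each gene as a percent of its mean CPM over 8 ESC libraries (dashed line at 100%), in MEFs, E-CAD+ populations, and -dox iPSCs of each cassette. Points are libraries and lines join the means. In 3NG- cells *Dppa2* averaged 54.6% of the ESC mean with MKOS and 9.47% with OKMS, and *Dppa3* averaged 1133% in OKMS 3NG+ cells.

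To ask whether the cassettes differed within a sort gate, MKOS was compared with OKMS in E-CAD+ 2NG-, 3NG-, and 3NG+ cells. A gene is called here where its adjusted p, over all 15630 genes tested, is 0.05 or less. In 2NG- cells, 1 of 4 genes was called higher with MKOS, against 2.84% of all genes in that direction. *Dppa2* was higher by 1.98 ± 0.52 on the log2 scale (SE, n = 3 against 3, adjusted p = 0.0176), and the libraries did not overlap. *Dppa4* was at 1.25 ± 0.52 (adjusted p = 0.173) with overlapping libraries. The call of *Dppa2* was lost without OKMS E-CAD+ 2NG- replicate 1 (adjusted p = 0.113) or replicate 2 (0.0855), or without MKOS 2NG- replicate 2 (0.0510), and with only the libraries compared (0.103). Without OKMS E-CAD+ 2NG- replicate 3, the library that stands apart, the difference of *Dppa2* was 3.84 and *Dppa4* was called at 2.82 (adjusted p = 0.00348). The 7 sorted libraries described under the processing include the third libraries of both cassettes in this gate. Without them *Dppa2* was at 3.70 and *Dppa4* at 2.29 (adjusted p = 1.76e-05 and 0.00112).

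In 3NG- cells, again 1 of 4 genes was called higher with MKOS, against 1.38% of all genes. *Dppa2* was higher by 2.42 ± 0.51 (adjusted p = 0.00471). *Dppa4* was at 1.71 ± 0.51 and did not pass (adjusted p = 0.0702), although its MKOS and OKMS libraries did not overlap. Without the 7 sorted libraries *Dppa2* was at 3.53 and *Dppa4* at 2.35 (adjusted p = 3.13e-06 and 0.000190). Without OKMS E-CAD+ 3NG- replicate 3 alone, *Dppa4* was called at 2.55 (adjusted p = 0.0114) and *Dppa2* stood at 3.60. Without replicate 1 or 2 of that population the call of *Dppa2* was lost (adjusted p = 0.0585 and 0.0608), as it was with only the libraries compared (0.0635). Summed fibroblast markers were higher in the MKOS than in the E-CAD+ OKMS libraries of these gates, at 427 to 966 against 72.3 to 278 CPM, and their part in these differences was not tested. In 3NG+ cells *Dppa2* differed by 0.72 ± 0.47 (adjusted p = 0.543) without overlap of the libraries, and *Dppa4* by -0.01 ± 0.49, with a 95% interval of -0.97 to 0.95.

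The gain of the reporter was compared next. From 3NG- to 3NG+ cells, 3 of 4 genes were called higher with OKMS, against 3.06% of all genes in that direction. *Dppa2* rose by 2.76 ± 0.52 (adjusted p = 0.000715) and *Dppa4* by 2.92 ± 0.54 (adjusted p = 0.000549), and both calls held without any single library, with estimates up to 3.94 and 3.76 without OKMS E-CAD+ 3NG- replicate 3. With MKOS 0 of 4 were called by edgeR's test and by DESeq2's, against 1.58% of all genes called in either direction. An unadjusted p under 0.05 was found for 2 of the 4, and for 2495 of all 15630 genes. *Dppa2* stood at 1.06 ± 0.47 and *Dppa4* at 1.20 ± 0.50 (adjusted p = 0.257 and 0.224), with libraries that did not overlap. The difference between the cassettes in this change was itself tested. It was 1.70 ± 0.68 for *Dppa2* and 1.72 ± 0.71 for *Dppa4* (adjusted p = 0.532 and 0.550), and 0 of 4 genes were called by edgeR's test, against 0.0256% of all genes. The unadjusted p was under 0.05 for all 4, and for 1163 of all 15630 genes. Without the 7 sorted libraries described under the processing, 3 of 4 were called in this test, with 46 calls over all genes. The calls within MKOS depended on the setting as well. With only the libraries compared, *Dppa2*, *Dppa4*, and *Dppa5a* were called higher in MKOS 3NG+ than 3NG- cells (adjusted p = 0.00746, 0.0172, and 0.0185), and without the 7 libraries *Dppa4* was (0.0121).

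*Dppa5a*, the KH-domain gene, accounted for a large share of all transcript reads in pluripotent cells, from 0.882% to 1.56% in ESCs and 0.000174% to 0.000880% in MEFs. Its level was at 1720, 1926, and 2513 CPM in MKOS 2NG- cells, at 6353, 7594, and 7928 CPM in MKOS 3NG- cells, and at 10015, 11154, and 10989 CPM in MKOS 3NG+ cells. The 3 populations did not overlap. In OKMS E-CAD+ 2NG- cells it was at 692, 500.3, and 2554 CPM, in OKMS E-CAD+ 3NG- cells at 1837, 1271, and 4448 CPM, and in OKMS 3NG+ cells at 14019, 14653, and 12955 CPM. The third 2NG- and 3NG- libraries were again the highest. As a share of the ESC mean, the 3 OKMS populations stood at 10.1%, 20.3%, and 112.0%, and the 3 MKOS populations at 16.6%, 58.9%, and 86.6%.

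*Dppa5a* was the only one of the 4 genes called between MKOS 3NG- and 2NG- cells, against 0.352% of all genes called higher in 3NG- cells, in the fit over all libraries. The rise was 1.74 ± 0.42 (adjusted p = 0.0479), and the call was lost without any single one of the 6 libraries (adjusted p = 0.0779 to 0.312) while the estimate stayed between 1.64 and 1.92. *Dppa2* and *Dppa4* had estimates of the same size in that comparison, at 1.79 ± 0.49 and 1.83 ± 0.51 (adjusted p = 0.109 and 0.136). They were called too with the replicate block (adjusted p = 0.0231 and 0.0122), without the 7 libraries (0.0144 and 0.00190), and with only the libraries compared (0.00265 and 0.0286). Between OKMS E-CAD+ 3NG- and 2NG- cells 0 of 4 were called by edgeR's test and by DESeq2's, against 0.0384% of all genes called. An unadjusted p under 0.05 was found for 3 of the 4, and for 795 of all 15630 genes. Without OKMS E-CAD+ 2NG- replicate 3, *Dppa2*, *Dppa4*, and *Dppa5a* were called there, at 3.21, 2.94, and 2.08 (adjusted p = 0.0171, 0.0120, and 0.00818). Without OKMS E-CAD+ 3NG- replicate 3, the other library that stands apart, the same genes were at 0.17, 0.53, and 0.18 and none was called by edgeR's test. Without the 7 sorted libraries, which include both, they were at 2.01, 2.07, and 1.31 and only *Dppa4* was called (adjusted p = 0.0248).

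Between cassettes *Dppa5a* was at 0.58 ± 0.41 in 2NG- cells (adjusted p = 0.476) and at 1.39 ± 0.42 in 3NG- cells (adjusted p = 0.0702), as MKOS minus OKMS, and at -0.52 ± 0.41 in 3NG+ cells (adjusted p = 0.632). Libraries did not overlap in the 3NG- and 3NG+ gates. Without the third OKMS library of the gate it was called in 2NG- cells at 1.73 (adjusted p = 0.00765) and in 3NG- cells at 2.13 (adjusted p = 0.00635). Without the 7 sorted libraries, which include the third libraries of both cassettes, it was called at 1.51 and 2.09 (adjusted p = 0.00295 and 8.24e-05). From 3NG- to 3NG+ cells it rose by 2.65 ± 0.44 with OKMS (adjusted p = 0.000120, and 3.39 without OKMS E-CAD+ 3NG- replicate 3), and it stood at 0.74 ± 0.41 with MKOS (adjusted p = 0.380). The difference between these changes was 1.91 ± 0.59 (adjusted p = 0.355).

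By mean level *Dppa3*, the partner of UHRF1, was highest in the 3NG- gate with MKOS (165 CPM). With OKMS it was highest in the 3NG+ gate (903 CPM), as the other 3 genes were. In MKOS cells it was at 32.3, 45.5, and 232 CPM in the 2NG- gate, at 87.3, 124, and 285 CPM in the 3NG- gate, and at 24.6, 59.9, and 136 CPM in the 3NG+ gate. The 3 populations overlapped, and replicate 3 was the highest library in each. In OKMS cells it was at 89.6, 77.4, and 426 CPM in the E-CAD+ 2NG- gate, at 204, 122, and 542 CPM in the E-CAD+ 3NG- gate, and at 1127, 498, and 1085 CPM in the 3NG+ gate. Replicate 3 was again the highest in both OKMS gates without *Nanog*-GFP.

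*Dppa3* was the only one of the 4 called between the cassettes in 3NG+ cells, against 0.339% of all genes called lower with MKOS. MKOS cells averaged 73.4 ± 56.8 CPM and OKMS cells 903 ± 352 CPM (SD, n = 3), a log2 difference of -3.76 ± 0.75 (adjusted p = 0.00707) without overlap. Without MKOS 3NG+ replicate 1 or 2 the difference was -3.33 or -3.64 and the call was lost (adjusted p = 0.0868 and 0.0571). The estimates were -1.09 ± 0.68 in 2NG- cells and -0.97 ± 0.68 in 3NG- cells (adjusted p = 0.403 and 0.549), and without the third OKMS library of the gate they stood at 0.25 and -0.09. Without the 7 sorted libraries, which include the third libraries of both cassettes, they were at -1.21 and -0.70 (adjusted p = 0.322 and 0.700). From 3NG- to 3NG+ cells *Dppa3* was at -0.94 ± 0.68 with MKOS and at 1.85 ± 0.69 with OKMS (adjusted p = 0.526 and 0.104), and without OKMS E-CAD+ 3NG- replicate 3 the OKMS difference was called at 2.72 (adjusted p = 0.0283). It was also called with the replicate block (2.13, adjusted p = 0.00801) and without the 7 libraries (3.06, adjusted p = 0.000973). The difference between the cassettes in this change was 2.79 ± 0.97 (adjusted p = 0.430).

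**Figure D3:**
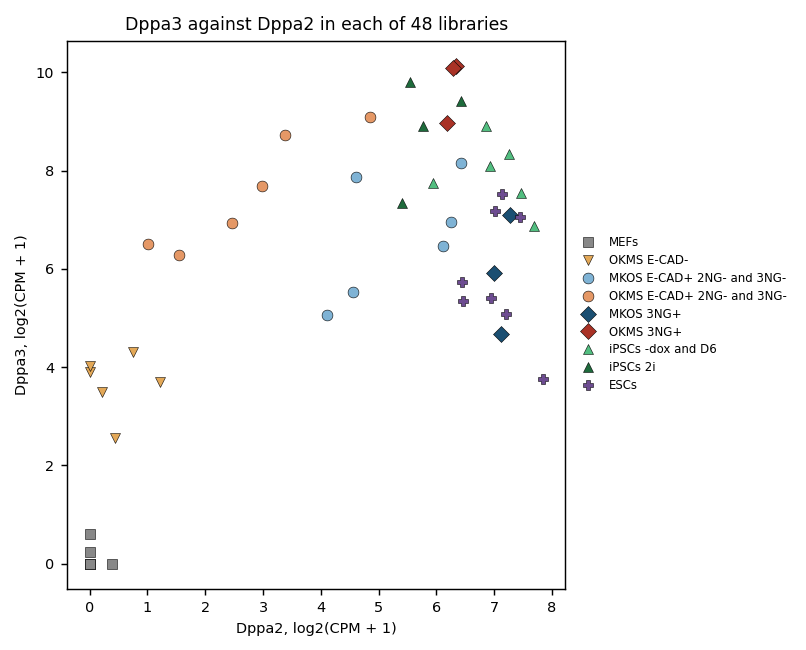
*Dppa3* against *Dppa2* in each of the 48 libraries, both as log2(CPM + 1). OKMS E-CAD+ 2NG- and 3NG- libraries had *Dppa3* at 77.4 to 542 CPM with *Dppa2* at 1.02 to 28.0 CPM, the E-CAD- ones had *Dppa3* at 4.88 to 18.9 CPM with *Dppa2* at 0 to 1.32 CPM, and OKMS 3NG+ libraries lie above the ESCs in *Dppa3* and below them in *Dppa2*.

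Among OKMS cells, E-CAD+ was compared with E-CAD- in the same gate. In the 2NG- gate all 4 genes were called higher in E-CAD+ cells, against 1.69% of all genes, and in the 3NG- gate all 4 were called, against 1.59%. *Dppa2* held 0, 2, and 1 reads in the 3 E-CAD- 2NG- libraries and 8, 1, and 0 reads in the E-CAD- 3NG- ones, and *Dppa4* held 17, 0, and 6 and 8, 0, and 21 reads. *Dppa3* held 74, 55, and 63 reads (mean 14.4 CPM) in E-CAD- 2NG- cells and 73, 14, and 56 reads (mean 10.7 CPM) in E-CAD- 3NG- cells. *Dppa5a* was at 145, 142, and 80.1 CPM and at 162, 110.2, and 59.6 CPM. Of the 4 genes, *Dppa3* and *Dppa5a* were above the limit of 3 reads in every E-CAD- library.

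*Dppa5a* was higher in E-CAD+ cells by 3.53 ± 0.46 in the 2NG- gate and by 4.62 ± 0.48 in the 3NG- gate (adjusted p = 2.90e-06 and 4.01e-08). *Dppa3* was higher by 4.84 ± 0.82 in the 3NG- gate and with a 95% interval of 2.46 to 5.54 in the 2NG- gate (adjusted p = 0.000252 and 0.00206). *Dppa2* was higher by 4.55 ± 0.95 and 4.30 ± 0.75 (adjusted p = 0.00373 and 0.000370), and *Dppa4* by 3.15 ± 0.69 and 3.97 ± 0.66 (adjusted p = 0.00582 and 0.000200). The libraries of *Dppa4* overlapped in the 2NG- gate, and those of the other genes did not overlap in either gate. In the 2NG- gate the calls of *Dppa2* and *Dppa4* were lost without E-CAD+ replicate 3, the library that stands apart (2.69 and 1.57, adjusted p = 0.227 and 0.280), or without E-CAD- replicate 3 (4.29 and 2.80, adjusted p = 0.0504 and 0.0706). The calls of *Dppa3* and *Dppa5a* held, at 2.66 and 2.38 without E-CAD+ replicate 3 (adjusted p = 0.0369 and 0.000128). All 4 calls of the 3NG- gate held without any single library. Without E-CAD+ 3NG- replicate 3 the differences there were 3.12 for *Dppa2*, 3.97 for *Dppa3*, 3.12 for *Dppa4*, and 3.87 for *Dppa5a*. With only the libraries compared, *Dppa2* and *Dppa4* were not called in that gate (adjusted p = 0.0977 and 0.0705). E-CAD itself was the sort marker, and fibroblast markers summed to 506 to 910.1 CPM in E-CAD- and to 72.3 to 278 CPM in E-CAD+ libraries of these gates, whose part in the differences was not tested.

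**Figure D4:**
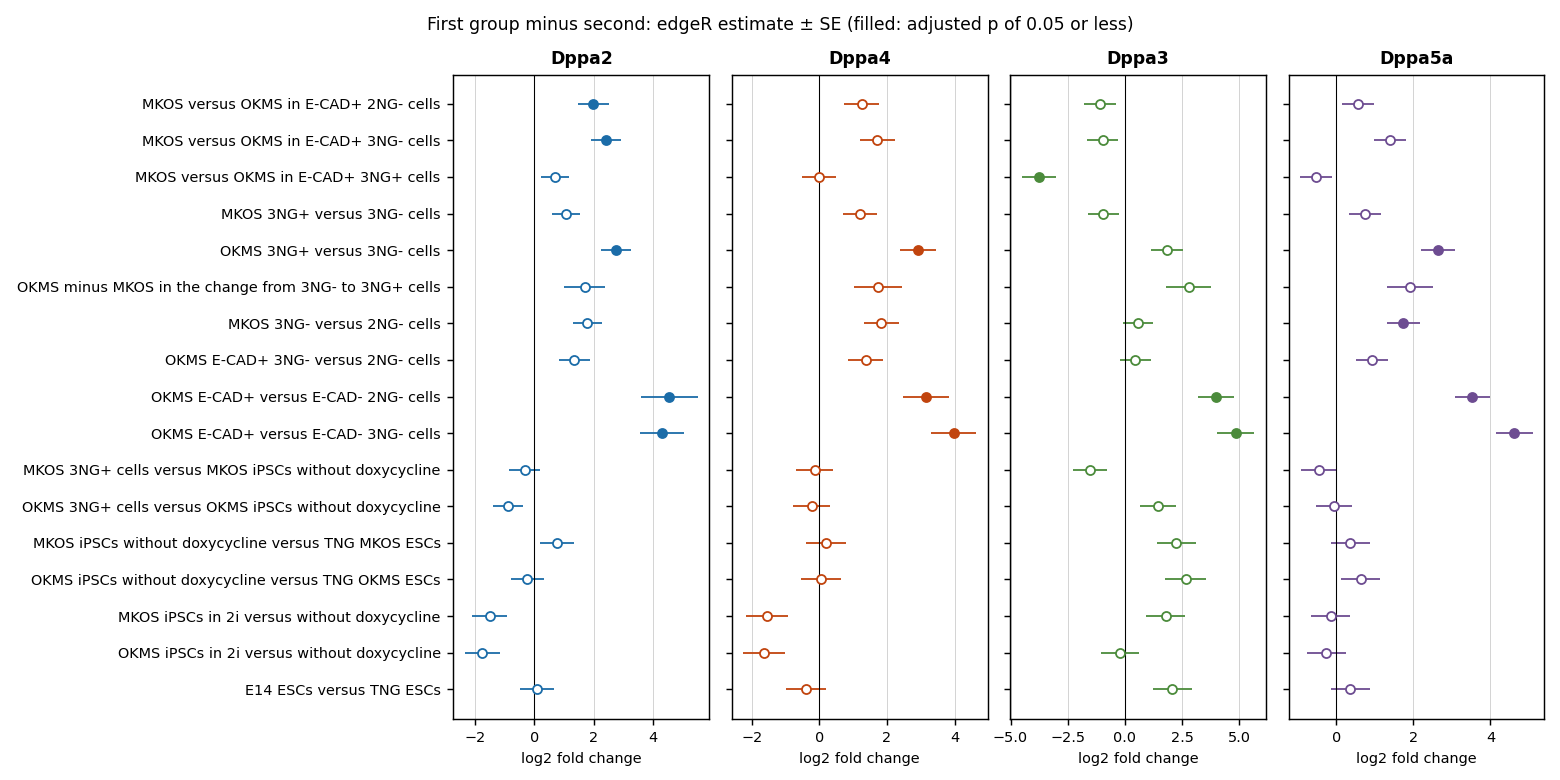
Log2 fold change of each gene (edgeR estimate, bars ± SE) in the 17 comparisons without MEFs, first group minus second, with each panel on its own axis. Filled points are called at an adjusted p of 0.05 or less. The 4 genes were called together in the E-CAD comparisons, and *Dppa3* alone in MKOS against OKMS 3NG+ cells.

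Against MEFs of the same cassette, 4 of 4 genes were called higher in MKOS 2NG- cells (15% of all genes) and in OKMS E-CAD+ 2NG- cells (15.7%), and 2 of 4, *Dppa3* and *Dppa5a*, in OKMS E-CAD- 2NG- cells (11.7%). Pooled over libraries, *Dppa5a* was 280-fold higher in MKOS 2NG- cells (counting interval 231 to 344), 399-fold higher in OKMS E-CAD+ 2NG- cells (312 to 518), and 25.7-fold higher in OKMS E-CAD- 2NG- cells (20.1 to 33.4). *Dppa3* had 0 reads in the MEFs with a cassette, and with the limit of 3 reads over the 2 MEF libraries it was at least 465-fold higher in MKOS 2NG-, 1383-fold higher in OKMS E-CAD+ 2NG-, and 63.1-fold higher in OKMS E-CAD- 2NG- cells. The counting intervals and limits cover counting error only.

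The folds in OKMS E-CAD+ 2NG- cells rest largely on a single library. All of these folds were computed again without each library, an alternative chosen after seeing the data. Without any single sorted library *Dppa5a* was 250.1- to 309.5-fold higher in MKOS 2NG- cells and 22.1- to 31.8-fold higher in OKMS E-CAD- 2NG- cells. OKMS E-CAD+ 2NG- replicate 3, the library that stands apart, held 36196 of 41808 pooled reads of *Dppa5a*, 6034 of 6800 of *Dppa3*, and 133 of 145 of *Dppa2*. Without it *Dppa5a* was 138.0-fold higher than in OKMS MEFs (counting interval 108 to 179), *Dppa3* at least 402-fold, and *Dppa2* at least 6.30-fold. In MKOS 2NG- cells *Dppa3* was at least 179.5-fold higher without replicate 3. The MEF libraries moved the folds too, since *Dppa5a* in MKOS 2NG- cells was 537-fold higher without MKOS MEF replicate 1 and 229.7-fold without replicate 2, and in OKMS E-CAD+ 2NG- cells 717-fold and 231.7-fold without OKMS MEF replicate 1 and 2. In OKMS E-CAD- 2NG- cells *Dppa5a* was 46.3-fold higher without OKMS MEF replicate 1 and 15.0-fold without replicate 2. *Dppa3* there was at least 39.0-fold and 24.1-fold higher without the same libraries. Without OKMS E-CAD+ 2NG- replicate 3 the pooled OKMS E-CAD+ fold of *Dppa5a* was below the MKOS fold, and with it above. All 4 genes were called in OKMS E-CAD+ 2NG- cells against MEFs without any single library.

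*Dppa4* was at least 150.4-fold higher in MKOS 2NG- cells than in MKOS MEFs. *Dppa2*, with 3 reads in MKOS MEFs, had a ratio of 96.4 (counting interval 33.0 to 467), and in OKMS E-CAD+ 2NG- cells it was at least 29.5-fold higher than in OKMS MEFs with replicate 3 included. In OKMS E-CAD- 2NG- cells *Dppa2* was under the limit on average, so no difference from MEFs was detectable at this depth (adjusted p = 0.378). *Dppa4*, with 1 read in OKMS MEFs, had a ratio of 22.7 there (4.07 to 896, adjusted p = 0.0631).

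Established iPSCs and ESCs held all 4 genes well above MEF levels in every library, and *Dppa3* varied widely among ESCs. By edgeR's fit over all libraries 0 of 4 were called, and by DESeq2's test 0 of 4, in each of the 7 comparisons among them and with 3NG+ cells. The number of the 4 with an unadjusted p under 0.05 was 0 in both comparisons with 3NG+ cells, 1 in each comparison of iPSCs with ESCs and of E14 with TNG, 3 for 2i with MKOS, and 2 for 2i with OKMS. Over all 15630 genes it was 2221 for MKOS and 1865 for OKMS 3NG+ cells against iPSCs. It was 929 and 2050 for iPSCs against ESCs, 945 for E14 against TNG, and 2126 and 1698 for 2i, with MKOS and OKMS in that order. *Dppa2* was at 86.4 to 228 CPM (median 133) in the 8 ESC libraries, *Dppa4* at 197 to 319 CPM (median 291), *Dppa5a* at 8822 to 15577 CPM (median 12486), and *Dppa3* at 12.6 to 182 CPM (median 46.9). For *Dppa3* the pair of TNG OKMS ESC libraries alone was at 133 and 12.6 CPM. All genes tested gave 2.14% called for MKOS 3NG+ against MKOS -dox iPSCs, 0.614% for OKMS, 0.307% for MKOS -dox iPSCs against TNG MKOS ESCs, 0.608% for OKMS, and 0.0448% for E14 against TNG ESCs.

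Between 3NG+ cells and the -dox iPSCs of the same cassette the estimates of *Dppa4* and *Dppa5a* were small beside their errors. For *Dppa4* the estimates were -0.13 ± 0.55 with MKOS and -0.22 ± 0.55 with OKMS, and for *Dppa5a* -0.46 ± 0.46 and -0.06 ± 0.46. For *Dppa2* they were -0.32 ± 0.51 and -0.88 ± 0.52, and the OKMS libraries did not overlap, at 71.3 to 80.1 CPM in 3NG+ cells and at 115 and 175 CPM in the iPSCs. *Dppa3* stood at -1.51 ± 0.75 with MKOS and at 1.46 ± 0.79 with OKMS (adjusted p = 0.352 and 0.462), and with the replicate block the MKOS difference was called (-2.12, adjusted p = 0.0287). Its iPSC libraries were at 322 and 117 CPM with MKOS and at 482 and 187 CPM with OKMS, so OKMS 3NG+ cells lay above their iPSCs in every library.

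Between -dox iPSCs and ESCs of the same cassette *Dppa3* was at 2.26 ± 0.87 with MKOS and at 2.65 ± 0.88 with OKMS (adjusted p = 0.621 and 0.146). The libraries did not overlap, and neither estimate passed the test. The OKMS difference was called with the replicate block (adjusted p = 0.0293) and without the 7 sorted libraries (0.0205). It was at 41.4 and 52.5 CPM in TNG MKOS ESCs. In E14 cells, an ESC line without a cassette or reporter, it was at 182 and 143 CPM against 39.8 and 33.0 CPM in TNG ESCs, a difference of 2.08 ± 0.86 (adjusted p = 0.720) that was called with only the libraries compared (adjusted p = 7.84e-05).

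Between 2i and -dox iPSCs the background of called genes was 1.97% of all genes for MKOS and 0.505% for OKMS by edgeR's test. *Dppa4* was at 101 and 97.7 CPM in MKOS and at 92.7 and 99.6 CPM in OKMS 2i libraries, against 273 and 287 CPM and 235 and 306 CPM without 2i. *Dppa2* was at 45.4 and 84.7 CPM and at 41.4 and 53.4 CPM, against 151 and 204 CPM and 115 and 175 CPM. The 4 libraries in 2i lay below the 4 without 2i for both genes. The log2 differences were -1.55 ± 0.62 and -1.63 ± 0.62 for *Dppa4* and -1.50 ± 0.58 and -1.74 ± 0.59 for *Dppa2*, with adjusted p between 0.207 and 0.295. Without the 7 sorted libraries, both genes were called with both cassettes (adjusted p = 0.0116 to 0.0197).

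In the same comparison *Dppa5a* stood at -0.14 ± 0.50 and -0.25 ± 0.51, with libraries at 14320 and 14230 CPM in MKOS and 16621 and 10836 CPM in OKMS 2i cells. *Dppa3* was at 898 and 686 CPM in MKOS 2i cells, above both -dox libraries (1.79 ± 0.85, adjusted p = 0.341), and at 161 and 481 CPM in OKMS 2i cells, one below and one within the range of the OKMS -dox libraries (187 to 482 CPM).

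Ordered by mean level over the 20 conditions, *Dppa2* and *Dppa4* were highest in TNG OKMS ESCs (200.3 and 315 CPM), *Dppa3* in OKMS 3NG+ cells (903 CPM), and *Dppa5a* in D6 iPSCs (20542 CPM, 2 libraries). Neighbours in these orders overlapped in their libraries in 18 of 19 pairs for *Dppa2*, 15 of 19 for *Dppa4*, 14 of 19 for *Dppa3*, and 12 of 19 for *Dppa5a*. For *Dppa2* the step without overlap lay between OKMS 2i iPSCs (47.4 CPM) and MKOS 2NG- cells (20.7 CPM), and for *Dppa4* the same iPSCs (96.1 CPM) were set apart from OKMS E-CAD+ 3NG- cells (34.2 CPM). For *Dppa3* MKOS 2i iPSCs (792 CPM) were set apart from OKMS -dox iPSCs (334 CPM). Outside the MEFs the mean level of the highest condition exceeded that of the lowest by 225-fold for *Dppa4*, 186-fold for *Dppa5a*, and 84.2-fold for *Dppa3*. For *Dppa2* the lowest condition, OKMS E-CAD- 2NG- cells, held 3 reads in all, so no fold is given.

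Over the 20 condition means of log2(CPM + 1), *Dppa2* and *Dppa4* had a Pearson r of 0.991, and over the 17 conditions without MEFs the same value. *Dppa3* had r = 0.759 with *Dppa2*, 0.800 with *Dppa4*, and 0.902 with *Dppa5a*, and these values were 0.475, 0.481, and 0.655 without MEFs. Over the 9 ESC and iPSC conditions *Dppa3* and *Dppa4* had r = -0.682, and *Dppa2* and *Dppa4* 0.906. These values describe conditions that share cell lines and cassettes, and carry no test.

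The 5 genes most like each member by this r over 20 conditions were *Dppa4*, *Dnmt3l*, *2610305D13Rik*, *Zfp936*, and *Morc1* for *Dppa2* (0.977 to 0.991), and *Dppa2*, *Gm14139*, *Hsd17b14*, *BC033916*, and *Zfp345* for *Dppa4* (0.981 to 0.991). *Dnmt3l* encodes a cofactor of the de novo DNA methyltransferases and *Morc1* a germline ATPase. For *Dppa5a* they were *Mybl2*, *Fgf4*, *Fbxo15*, *Gm14139*, and *AU018091* (0.977 to 0.986), and for *Dppa3* *Amt*, *Sox15*, *2700097O09Rik*, *Cdh1*, and *Gstp2* (0.923 to 0.959). *Cdh1* encodes E-CAD, the sort marker. No gene was as close to *Dppa3* as the fifth was to any other member. With Spearman's rho, 1 of the 5 was shared for *Dppa2*, *Dppa4*, and *Dppa3* each and 0 for *Dppa5a*, so the names depend on the measure.

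Beyond *Dppa2*, the next transcript with reads was *Morc1*, whose start lies 120963 bases away. *Morc1* averaged 27.1 CPM in MKOS 3NG- and 9.63 CPM in OKMS 3NG- cells, and 74.7 and 58.1 CPM in the 3NG+ cells, and it was called from 3NG- to 3NG+ with OKMS (2.82 ± 0.61, adjusted p = 0.00367), as the pair was. *Pvrl3*, the nearest transcript on the other side of the pair, had r = 0.02 with *Dppa2* and averaged 15.9 CPM in MEFs and 18.5 CPM in ESCs.

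*Dppa3* lies between *Gdf3*, a TGF-beta ligand, and *Nanog*. *Gdf3* was at 99.1 CPM in OKMS 3NG+ and 106 CPM in MKOS 3NG+ cells (-0.07 ± 0.51, adjusted p = 1.00) and *Nanog* at 89.7 and 76.1 CPM (-0.38 ± 0.45, adjusted p = 0.790). Whether these differences differ from that of *Dppa3* was not tested. *Ooep*, a KH-domain gene of the maternal subcortical complex that starts 9849 bases from *Dppa5a*, had r = 0.954 with it. *Ooep* rose from 3NG- to 3NG+ cells with OKMS by 3.32 ± 0.62 (adjusted p = 0.000636) and averaged 258 CPM in ESCs and 0.0619 CPM in MEFs.

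**Figure D5:**
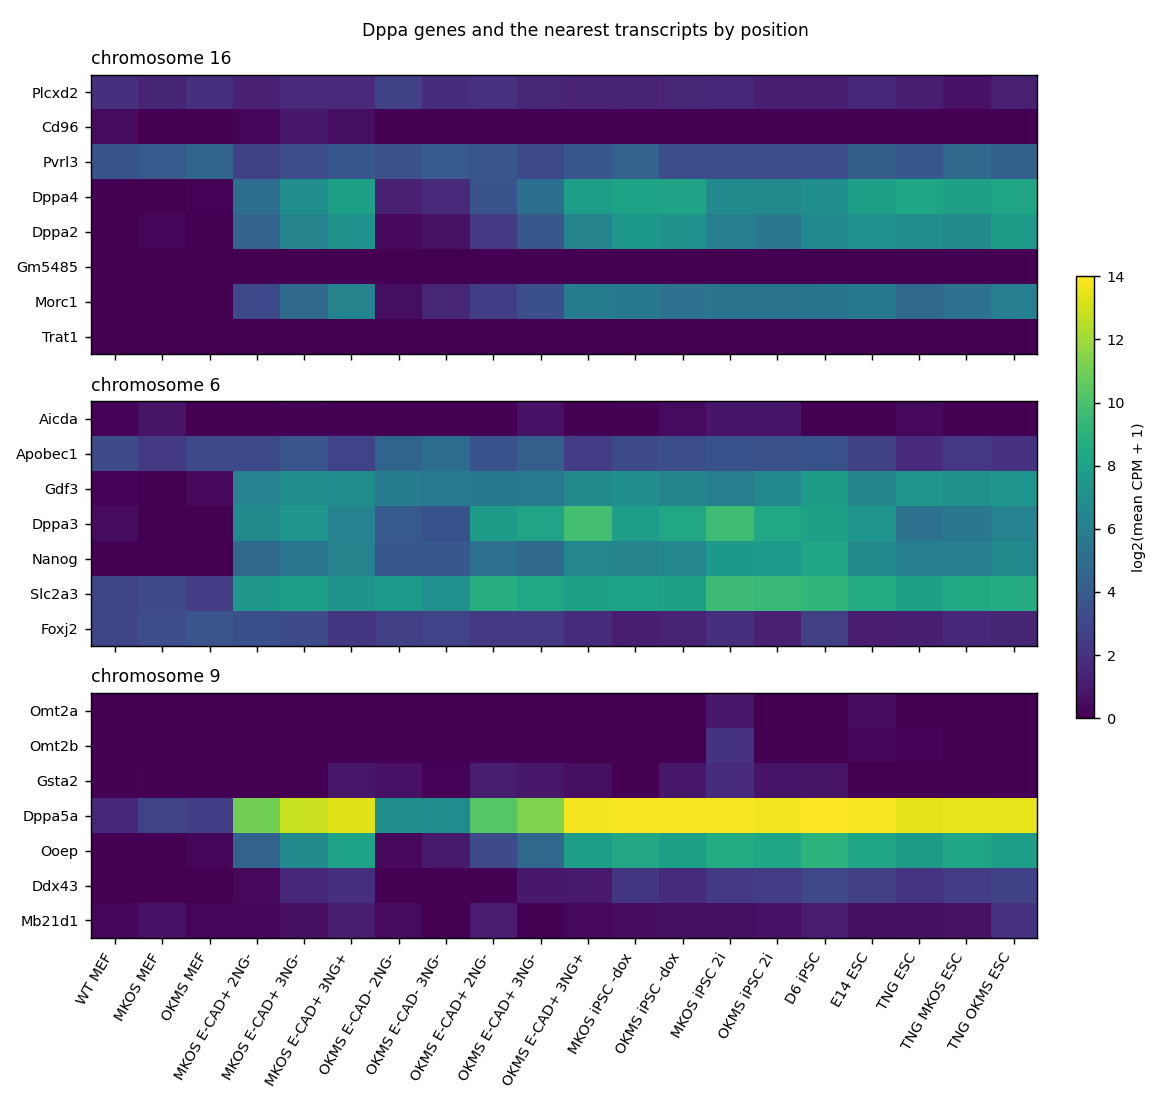
Mean level, as log2(mean CPM + 1), of the 4 genes and of the 3 nearest transcripts on either side in the 20 conditions, in chromosomal order. *Morc1* and *Ooep* are near 0 in MEFs and high in ESCs, as their Dppa neighbours are, whereas *Pvrl3* averaged 15.9 CPM in MEFs and 18.5 CPM in ESCs.

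Other genes of these pathways were read from 4 lists. The 2-cell list holds genes named as targets of DPPA2 and DPPA4 (*Zscan4* copies, *Tcstv*, *Tdpoz*, and others, whose copies share reads), and 12 of its 16 genes were tested. In the cassette, reporter, ICAM1, E-CAD, and MEF comparisons 0 of 12 were called by edgeR's test or DESeq2's, against 4 to 4569 of all 15630 genes by edgeR's. At most 4 of the 12 in any of them had an unadjusted p under 0.05, against 795 to 6241 of all 15630 genes. The list's median estimate was 0 in the ICAM1, E-CAD, and MEF comparisons, the value taken by genes without reads in either group. Such genes cannot be called, so these counts do not show that the targets were unchanged. In 3NG+ cells against -dox iPSCs, 6 of 12 were called lower in 3NG+ cells with MKOS and 4 of 12 with OKMS, against 0.825% and 0.301% of all genes called lower, and DESeq2's test called 5 and 2. *Zscan4d*, the most abundant of them in ESCs, had 0 reads in the MKOS 3NG+ libraries and averaged 102 CPM (59.5 to 144) in MKOS -dox iPSCs. In OKMS it averaged 0.0841 CPM in 3NG+ cells and 229.9 CPM (33.3 to 426) in the iPSCs. With *Zscan4* copies at 0 reads in a group the fitted fold changes have no fixed size, so no median is given for this list in the comparisons with iPSCs. *Dppa2* and *Dppa4* stood at -0.32 and -0.13 with MKOS and at -0.88 and -0.22 with OKMS in these comparisons, none of them called. *Syce1*, a meiotic gene of the list, was not among those called. Between MKOS -dox iPSCs and TNG MKOS ESCs *Zscan4c*, *Zscan4d*, and *Zscan4f* were called higher in the iPSCs (0.243% of all genes), and the same 3 were called lower in OKMS 2i than in -dox iPSCs (0.365%). DESeq2's test called 0 of 12 in either comparison.

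Among 9 genes of DNA methylation and partners of DPPA3, 5 (*Uhrf1*, *Dnmt3a*, *Dnmt3l*, *Tet1*, and *Ipo5*) were called higher from 3NG- to 3NG+ cells with OKMS, with a median of 0.72 against -0.06 over all genes, of which 3.06% were called higher. With MKOS 1 of 9 (*Uhrf1*) was called higher, against 0.557% of all genes, with a median of 0.59. Between the cassettes in 3NG+ cells, the comparison in which *Dppa3* was called, 0 of 9 were called by edgeR's test or DESeq2's. An unadjusted p under 0.05 was found for 3 of the 9, and for 1902 of all 15630 genes. Over all genes 0.685% were called there in either direction by edgeR's test. *Dnmt3l* was called lower in OKMS 2i than in -dox iPSCs (-3.08 ± 0.67, adjusted p = 0.0167), as was *Dnmt3a*, against 0.365% of all genes called lower.

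Of the 8 genes of the KH-domain and subcortical list 3 were tested. *Khdc3* and *Ooep* were called higher from 3NG- to 3NG+ cells with OKMS, as *Dppa5a* was, against 3.06% of all genes called higher. *Khdc3*, which is also on the list of candidate pluripotency factors, was called in the test of the difference between the cassettes in this change too. In that test 2 of all 15630 genes were called higher with OKMS. *Khdc3* and *Tle6* were called higher with MKOS than with OKMS in 2NG- cells, against 2.84% of all genes. Of 15 other candidate pluripotency factors, 7 were called higher from 3NG- to 3NG+ cells with OKMS (median 1.42), against 3.06% of all genes. With MKOS 0 of 15 were called by edgeR's test and 1 by DESeq2's (median 0.52). An unadjusted p under 0.05 was found for 8 of the 15, and for 2495 of all 15630 genes. Over all genes 1.58% were called there in either direction by edgeR's test. Between the cassettes, 4 of 15 (*Zfp42*, *Tcl1*, *Khdc3*, and *Stat3*) were called higher with MKOS in 2NG- cells and 1 (*Eras*) lower, against 2.84% and 2.23% of all genes. In 3NG- cells 5 of 15 (*Fbxo15*, *Dnmt3l*, *Zfp42*, *Tcl1*, and *Khdc3*) were called higher and 0 lower, against 1.38% called higher.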

How the data were processed

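RNA of 48 libraries was sequenced by the STRT method, which reads 5′ ends of mRNAs. The deposited table gives raw counts per transcript, which the authors did not normalize, and a column of counts of reads with a single genome position summed over all libraries. Per the labels, processing used Bowtie 0.12.7 and mm10. The methods of the study name another build. Per the file headers, a read with more than 1 position was counted once, at whichever exonic hit lay furthest 5′. No value column belonged to samples outside the series (0 columns).

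CPM was computed over the 24264 transcripts, without repeats and spike-ins. Counts were tested with edgeR 4.0.16 (quasi-likelihood test, TMM, filterByExpr by condition, 1 coefficient per condition, 48 libraries, Benjamini-Hochberg adjustment over 15630 genes, two-sided, threshold 0.05) in R 4.3.3. SE is the estimate divided by the square root of F, and 95% intervals use the normal distribution. The 20 comparisons used groups from the labels, which do not say that replicates came from separate cultures, so p-values measure the spread between these libraries, which may be technical. The spread of the 4 genes was 3.23 to 8.96 times the trend for genes of their abundance. The test was checked on data simulated with a single dispersion, for 1 comparison of 3 libraries with 3, where it often missed changes of 4-fold. The 4 genes spread more than the trend and many groups held 2 libraries, so larger differences can be missed too. *Dppa3*, for example, was not called at 6.29-fold in OKMS -dox iPSCs against TNG OKMS ESCs. A difference that was not called is therefore not shown to be absent.

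Alternatives were DESeq2 1.42.0 (Wald test and its size factors in edgeR), no filter, only the libraries compared, a replicate block, leaving out each library (with the dispersion trend of all 48), and leaving out together the 7 sorted libraries that averages in the study's supplement omit: replicate 3 of MKOS 2NG- and 3NG-, of OKMS E-CAD+ 2NG- and 3NG-, and of OKMS E-CAD- 2NG- and 3NG-, and replicate 2 of OKMS 3NG+. The genes, lists, and comparisons were chosen with earlier results of these data known. Named genes were the 4 members, the 5 genes most like each, the 3 nearest transcripts on each side, and counts with the 3 most abundant genes of each list in ESCs; other list genes are named where a count was 7 or fewer, chosen after their values were seen.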

Additional observations from a re-analysis of the deposited data

Results flagged for a closer look

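The D6 iPSC libraries entered no comparison, and the 4 genes were all above their MEF levels there. *Dppa5a* averaged about 20540 CPM, at 19653 and 21431 CPM, above every other library of the series. *Dppa3* averaged 244 CPM, *Dppa2* 90.6 CPM, and *Dppa4* 123 CPM. For *Dppa4* both D6 libraries (107 and 139 CPM) were below every ESC library, and for *Dppa2* one was below the ESC range and one within it (60.2 and 121 CPM). These are values outside every comparison and above the MEF libraries, which held 0 to 8.80 CPM of any of the 4 genes.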

How the results depend on the processing

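Over the 80 values (4 genes in 20 comparisons), DESeq2's size factors changed no call and no direction, and DESeq2's Wald test added 1 call, *Dppa4* in OKMS E-CAD- 2NG- cells against MEFs (adjusted p = 0.0261). Without the filter on low counts edgeR gave each of the 4 genes the spread of the trend, whereas with the filter their spread was 3.23 to 8.96 times the trend, and more were called by construction.

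The number of the 4 genes called then became 4 for MKOS against OKMS in 2NG- and in 3NG- cells (from 1 each), 4 for MKOS 3NG+ against 3NG- and for the difference between the cassettes in that change (from 0), 3 for MKOS 3NG- against 2NG- (from 1) and for OKMS E-CAD+ 3NG- against 2NG- (from 0), 1 for 3NG+ cells against iPSCs and for iPSCs against ESCs with each cassette and for E14 against TNG, and 3 and 2 for 2i with MKOS and OKMS (all from 0). In the same order, calls over all genes were 1260 and 864, 887 and 163, 237 and 149, 799 and 384, 229 and 426, 181, and 702 and 385. Without the 7 sorted libraries the number of the 4 became 3 for MKOS against OKMS in 2NG- and 3NG- cells, 1 for MKOS 3NG+ against 3NG-, 3 for the difference between cassettes, 3 for MKOS and 1 for OKMS 3NG- against 2NG-, 2 (from 4) for E-CAD+ against E-CAD- 2NG- cells, 1 for OKMS iPSCs against ESCs, and 2 for 2i with each cassette. Calls over all genes were then, in this order, 593 and 275, 559, 46, 69 and 33, 290, 217, and 499 and 216. With only the libraries compared the number of the 4 became 0 for MKOS against OKMS in 2NG- and 3NG- cells, 3 for MKOS 3NG+ against 3NG- and for MKOS 3NG- against 2NG-, 2 for E-CAD+ against E-CAD- in each gate, and 1 for 2i with MKOS and for E14 against TNG. Calls over all genes were then, in this order, 748 and 277, 545 and 122, 176 and 101, and 129 and 263. In this setting *Dppa2* was filtered out, with no value, in E-CAD+ against E-CAD- 2NG- cells, and *Dppa2* and *Dppa4* in OKMS E-CAD- 2NG- cells against MEFs. The cause of the changes without the 7 libraries and with only the libraries compared was not tested.

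In comparisons with 3 pairs, correlations of same-numbered deviations ran from -0.031 to 0.320, and most were positive. The highest was for replicate 3 in MKOS 3NG- against 2NG- cells. In none of the comparisons with 3 pairs was every correlation over 0.1, the limit chosen for pairing, and the main test was unpaired throughout. With 2 pairs the correlation was over that limit for OKMS iPSCs in 2i against -dox, at 0.105 for both replicates. The block gave 145 calls over all genes in that comparison, against 79 without it. That limit does not show that pairing is absent. With the replicate block 2 genes were called for MKOS against OKMS in 2NG- cells, 3 in 3NG- cells, 3 for MKOS 3NG- against 2NG-, and 1 each for MKOS 3NG+ cells against iPSCs and OKMS iPSCs against ESCs. With the block, without the 7 libraries, and without the filter, 4 genes (from 3) were called for OKMS 3NG+ against 3NG- cells, *Dppa3* being added. For MKOS iPSCs against TNG MKOS ESCs the correlation was -0.160, and a crossed block, chosen after seeing the data, called 61 genes against 59 with the block and 48 without, and 0 of the 4.

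Leaving out 1 library at a time gave 0 to 3 called genes for MKOS against OKMS in 2NG- and in 3NG- cells, 0 to 1 in 3NG+ cells, 0 to 0 for MKOS 3NG- against 2NG-, 0 to 3 for OKMS E-CAD+ 3NG- against 2NG-, 3 to 4 for OKMS 3NG+ against 3NG-, and 2 to 4 for E-CAD+ against E-CAD- 2NG- cells. Values without a call changed sign in these ranges: *Dppa3* in MKOS against OKMS 2NG- cells from -2.50 to 0.25, in MKOS 3NG- against 2NG- from -0.021 to 1.99, in OKMS E-CAD+ 3NG- against 2NG- from -0.42 to 1.79, and in 2i with OKMS from -1.24 to 0.70. *Dppa4* ranged from -0.13 to 0.20 in MKOS against OKMS 3NG+ cells, from -0.26 to 0.076 in MKOS 3NG+ cells against iPSCs, from -0.15 to 0.71 in MKOS iPSCs against ESCs, and from -0.12 to 0.25 in OKMS iPSCs against ESCs. *Dppa2* ranged from -0.54 to 0.20 in OKMS iPSCs against ESCs and from -0.27 to 0.59 in E14 against TNG, and *Dppa5a* from -0.57 to 0.0065 in 2i with OKMS.

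Over all genes tested, MKOS against OKMS gave 793 calls in 2NG-, 339 in 3NG-, and 107 in 3NG+ cells. The change from 3NG- to 3NG+ gave 247 with MKOS, 979 with OKMS, and 4 for their difference. For 3NG- against 2NG- there were 61 with MKOS and 6 with OKMS, and for E-CAD+ against E-CAD- 372 in 2NG- and 274 in 3NG- cells. For 3NG+ cells against iPSCs there were 335 with MKOS and 96 with OKMS, for iPSCs against ESCs 48 and 95, for 2i 308 and 79, and for E14 against TNG 7. Each of these numbers of called genes is given again below where a setting moved it by more than 1.5 times, with the number it moved to. They moved from 793 to 1260, 339 to 864, 107 to 484, 247 to 887, 4 to 163, 61 to 237, 6 to 149, 372 to 843, 274 to 660, 335 to 799, 96 to 384, 48 to 229, 95 to 426, 308 to 702, 79 to 385, 7 to 181 without the filter, 107 to 219, 247 to 559, 4 to 46, 6 to 33, 274 to 159, 335 to 585, 48 to 90, 95 to 217, 308 to 499, 79 to 216, 7 to 37 without the 7 libraries, 247 to 545, 979 to 428, 4 to 11, 61 to 122, 6 to 0, 372 to 176, 274 to 101, 96 to 58, 95 to 40, 308 to 129, 79 to 27, 7 to 263 with only the libraries compared, 107 to 175, 247 to 417, 4 to 7, 61 to 92, 79 to 145, 7 to 17 with the block, and 339 to 556, 107 to 271, 247 to 609, 979 to 1481, 4 to 20, 61 to 105, 6 to 17, 274 to 416, 335 to 567, 96 to 217, 48 to 92, 95 to 498, 308 to 608, 79 to 270, 7 to 55 with DESeq2's Wald test.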

Other observations

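*Dppa1*, which shares the name but was not among the 4 genes, had reads in MKOS MEFs (51 and 24 reads, 5.22 and 5.32 CPM) and in all 3 MKOS 3NG- libraries (6.37, 2.36, and 1.37 CPM), in 1 library each of MKOS 2NG- (4 reads) and OKMS E-CAD+ 3NG- cells (7 reads), and in no other library. It was at 0 reads in WT MEFs, OKMS MEFs, iPSCs, and ESCs. This gene was chosen after its values were seen, and no test was made.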
